A study of Mus musculus with 9 samples.

Results

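The genes described here are 8 of ketone body metabolism and monocarboxylate transport in the brain. They are the plasma membrane carriers Slc16a1 and Slc16a7, the carrier chaperone Bsg, the mitochondrial enzymes Bdh1, Oxct1 and Acat1, and 2 enzymes outside mitochondria, Aacs and Hmgcll1. They were taken by gene symbol from the 27339 genes of the table, where each had 1 row, and all 8 were tested in every comparison. Their levels were measured by bulk RNA sequencing of mouse substantia nigra pars compacta, with 3 libraries in each of 3 groups. Control mice (Ctrl) were compared with mice given MPTP, a toxin that damages dopamine neurons through mitochondrial complex I. The remaining group received MPTP and a ketogenic diet based on medium-chain triglycerides (called the diet group here, and labelled MPTP + MCT-KD). Among the samples used here no group had the diet without MPTP, so every diet value also reflects mice given the toxin. The sources used here do not give strain, age, sex, doses or duration, nor whether each library came from a single animal. The p-values therefore measure only how far these libraries spread, which may be technical.

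Ketone bodies, chiefly 3-hydroxybutyrate and acetoacetate, are made from fatty acids in liver mitochondria and serve the brain as a fuel when glucose is short. They cross membranes through proton-linked monocarboxylate carriers, which also move lactate and pyruvate. Inside mitochondria 3-hydroxybutyrate is oxidised to acetoacetate, which receives coenzyme A from succinyl-CoA and is then split into acetyl-CoA for the citric acid cycle.

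None of the 8 genes passed the test in any comparison (edgeR's quasi-likelihood test with Benjamini-Hochberg adjustment over 14949 genes, threshold 0.05). The difference with the smallest p among them was in Aacs, which makes acetoacetyl-CoA in the cytosol for lipid synthesis. Its mean level in the diet group was 18.1% below that of the MPTP group, with an adjusted p of 0.587 by edgeR. Oxct1, the enzyme that commits acetoacetate to oxidation, had higher levels in each diet library than in each control library, by 9.44% on the means, and an adjusted p of 0.753 by edgeR. Such a lack of overlap between these groups in CPM, in either direction, was found for 12.7% of all genes tested. Slc16a7 varied far more than the others between libraries, and its read counts moved with the transcript length that the table had used for it.

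Promoter sequence is shown for Aacs and Oxct1, the members of the cytosolic and the mitochondrial route whose libraries separated 2 of the groups in CPM. RefSeq promoter windows (GRCm38.p6) matched 5 of the 8 genes (Bdh1, Oxct1, Hmgcll1, Aacs and Slc16a1), and the stretches printed here end before the gene start in both RefSeq and GENCODE M21. The Aacs stretch is chr5:125475623-125475813 on the plus strand and the Oxct1 stretch is chr15:4026178-4026382 on the plus strand. Capitals mark letters that fit the motif TGCGCANGC, which is known as the site of the nuclear respiratory factor NRF1.
Aacs: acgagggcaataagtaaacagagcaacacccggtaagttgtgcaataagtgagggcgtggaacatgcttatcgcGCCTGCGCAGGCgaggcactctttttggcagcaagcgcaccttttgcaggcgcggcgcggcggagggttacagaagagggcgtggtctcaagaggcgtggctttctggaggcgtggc
Oxct1: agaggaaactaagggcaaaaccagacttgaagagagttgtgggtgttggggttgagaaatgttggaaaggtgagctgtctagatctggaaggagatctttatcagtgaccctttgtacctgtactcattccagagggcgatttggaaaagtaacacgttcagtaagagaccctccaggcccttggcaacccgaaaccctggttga

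Across the 250 bases before each RefSeq start, both strands were searched for 6 motifs. These were the E-box CACGTG (held by 6.02% of 32851 RefSeq promoters), the CCAAT box (33.8%), the GC box GGGCGG (32.7%), the SREBP-type letters TCACNCCAC (1.05%), the NRF1-type letters TGCGCANGC (3.45%) and TATAAA (12.4%). The Aacs promoter held the NRF1-type letters on both strands in overlapping positions, starting 176 and 173 bases before the RefSeq start. The promoter of Slc16a1 also held them, starting 51 bases before its start, beside an E-box at 200 and a GC box at 85 bases. In the windows of Oxct1, Bdh1 and Hmgcll1 none of these letters was found. A match is a run of letters and says nothing of binding.

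Library totals ranged from 33.2 to 40 M counts (M being the SI prefix mega). The nigral tissue of the labels was checked against marker genes. All 8 dopamine neuron markers were measured, and their summed level was 506 to 597 CPM (counts per M counts, scaled by TMM) in Ctrl, 363 to 456 CPM in MPTP and 355 to 449 CPM in the diet group. No single marker of any cell type passed the test by edgeR. Ctrl 3 stood apart, with 1272 CPM of choroid plexus markers against 42.3 to 120 CPM in the other libraries, and 67.7 CPM of pineal markers against at most 3.56 CPM. Summed markers of brain endothelium, where Slc16a1 is known to be abundant, were 517 to 578 CPM in Ctrl, 521 to 545 CPM in MPTP and 540 to 590 CPM in the diet group. Mature oligodendrocyte markers summed to 10168 to 12391 CPM in Ctrl, 10741 to 13187 CPM in MPTP and 12964 to 14262 CPM in the diet group. Neuron markers spanned 4199 to 4642 CPM and astrocyte markers 3356 to 3695 CPM over all libraries. Microglia markers summed to 226 to 252 CPM in Ctrl, 252 to 264 CPM in MPTP and 263 to 271 CPM in the diet group. Meningeal fibroblast markers varied between libraries, at 1278, 941 and 508 CPM in Ctrl, 391, 401 and 703 CPM in MPTP, and 466, 1195 and 1273 CPM in the diet group. Most of each sum came from 1 gene, Ptgds, at 318 to 1083 CPM over all libraries. Of the 8 meningeal markers 0 were above in MPTP against Ctrl and 8 were above in the diet group against MPTP. Red cell markers were 165 to 281 CPM in Ctrl, 98.2 to 167 CPM in MPTP and 135 to 180 CPM in the diet group. The part of these cell types in the values below was not tested. In bulk tissue, fewer cells of a type and less RNA per cell cannot be told apart.

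Per transcript length, the 8 genes spanned a wide range of levels in this tissue. Bsg (basigin), the glycoprotein that brings MCT1 and related carriers to the cell surface, had a mean of 323 FPKM (fragments per kilobase of transcript and M fragments) over the 9 libraries, and 0.575% of the genes tested had a higher mean. Oxct1 followed with 73 FPKM, then Acat1 with 25.7 FPKM, and the library ranges of these did not overlap with each other or with the next gene. The next in order were Slc16a1 (mean 13.6 FPKM, range 12.2 to 14.5), Aacs (12.3 FPKM, 9.79 to 13.9) and Bdh1 (11.6 FPKM, 10.8 to 12.4). The ranges of these neighbours overlapped. Within each of the 9 libraries Slc16a1 was above Bdh1, most narrowly in Ctrl 1 (12.2 against 12.1 FPKM). Aacs was above Slc16a1 in Ctrl 1 (12.8 FPKM) but below Bdh1 in Ctrl 2 (11.7 against 12.4 FPKM). The place of Aacs in this order is therefore not resolved by these libraries. Hmgcll1 (5.52 FPKM, 4.44 to 6.28) and Slc16a7 (2.31 FPKM, 1.82 to 3.2) were the lowest, and 77% of the genes tested had a higher mean than Slc16a7. Of the related genes on the list, Hmgcs1 (79.9 FPKM), which makes the precursor of sterols in the cytosol, had a mean between those of Bsg and Oxct1, and its range of 74.3 to 86.3 FPKM overlapped that of Oxct1 (67 to 79.4 FPKM).

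**Figure D1:**
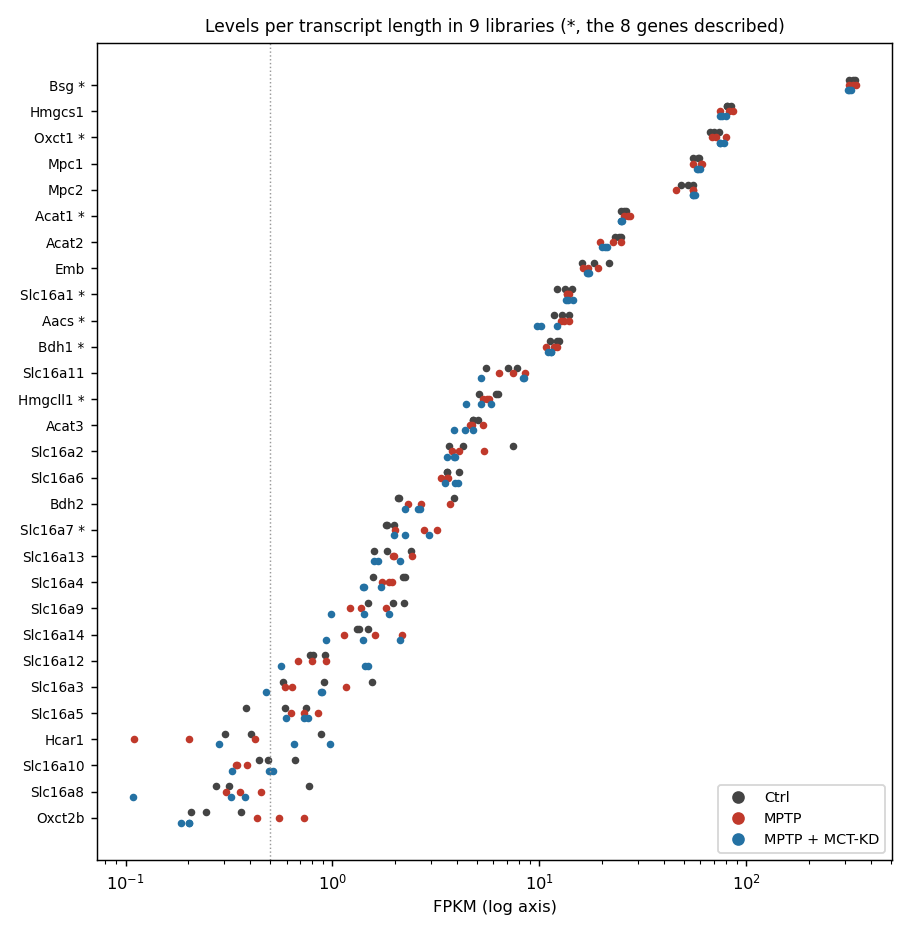
FPKM (log axis) in each of the 9 libraries for the 8 genes (marked with an asterisk) and the related genes reported here with a mean of at least 0.1 FPKM, coloured by group. The dotted line marks the mean of 0.5 FPKM required for testing, and Bsg is highest at 310 to 340 FPKM in the 9 libraries.

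Most of these genes varied little between libraries. The coefficient of variation of CPM over the 9 libraries was 3.38% for Bsg, 3.69% for Acat1, 4.92% for Slc16a1, 5.7% for Bdh1 and 6.9% for Oxct1, all below the median of 8.93% over the genes tested. Hmgcll1 (9.8%) and Aacs (11.1%) were slightly above that median. Slc16a7 was far above it with 64.1%, and 0.983% of the genes tested had a larger value. On the FPKM scale the coefficient for Slc16a7 was 22.6%.

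**Figure D2:**
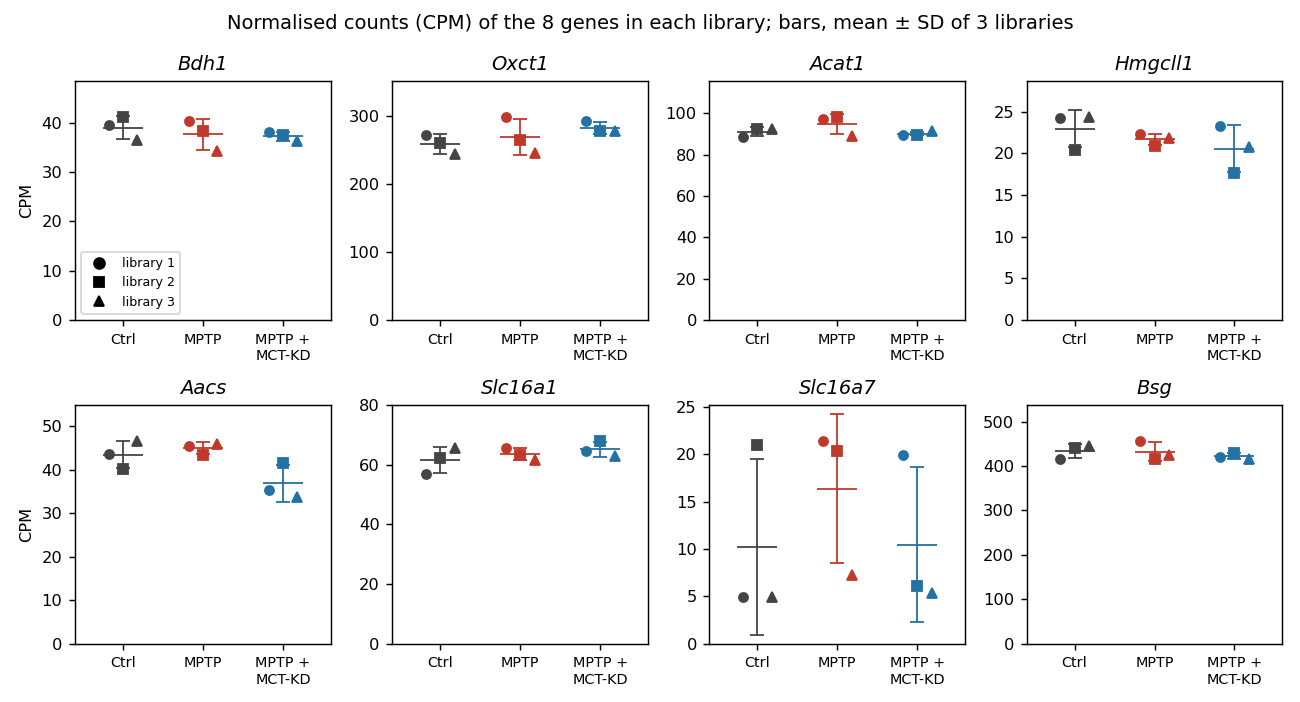
Normalised counts (CPM) of each of the 8 genes in each library (marker shape, replicate number), by group, with the mean and SD of 3 libraries; every axis starts at 0. The diet libraries of Aacs lie between 33.7 and 41.6 CPM, below the MPTP libraries at 43.4 to 46 CPM, and Slc16a7 splits into libraries near 20 CPM and libraries at 4.89 to 7.29 CPM in every group.

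Entry of ketone bodies was first examined through the carriers. Slc16a1 (chr3:104638668-104658462, plus strand) encodes MCT1, the carrier of endothelium and glia. It measured 57, 62.4 and 65.7 CPM in the Ctrl libraries 1 to 3, 65.7, 63.2 and 61.6 CPM in MPTP, and 64.7, 67.9 and 62.9 CPM in the diet group. The groups overlapped throughout. On the log2 CPM scale the diet group minus MPTP was 0.038 (SE 0.0637, 95% interval -0.10 to 0.18, edgeR adjusted p = 0.918), and MPTP minus Ctrl was 0.041 (SE 0.0636).

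Bsg (chr10:79704491-79711969, plus strand) measured 417, 440 and 446 CPM in Ctrl, 456, 416 and 424 CPM in MPTP, and 421, 430 and 417 CPM in the diet group. All 3 groups overlapped. Its differences were the most narrowly bounded of the 8. The diet group minus MPTP was -0.033 on the log2 scale, with a 95% interval of -8.94% to 4.91% for the change. MPTP minus Ctrl was -0.0075, with an interval of -7.32% to 6.78%. Per length Bsg exceeded Slc16a1 22.1-fold to 25.7-fold in every library.

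Slc16a7 (chr10:125219270-125389465, minus strand) encodes MCT2, the high-affinity carrier of neurons. Its CPM was 4.91, 21 and 4.89 in Ctrl, 21.4, 20.4 and 7.29 in MPTP, and 19.9, 6.09 and 5.4 in the diet group. Each group thus held libraries of both kinds, namely Ctrl 2, MPTP 1, MPTP 2 and diet 1 near 20 CPM and the other 5 at 4.89 to 7.29 CPM. The log2 difference of MPTP minus Ctrl was 0.67 with an SE of 0.85 (95% interval -1.39 to 2.73, edgeR adjusted p = 0.971), so the counts could not bound a change in this gene. Leaving out 1 library moved this value between 0.34 (without Ctrl 1 or Ctrl 3) and 1.74 (without Ctrl 2).

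The FPKM values of Slc16a7 showed another order of libraries. They were 1.82, 1.98 and 1.84 in Ctrl, 3.2, 2.01 and 2.77 in MPTP, and 2.94, 2.24 and 1.98 in the diet group. On this scale both groups given MPTP lay at or above the highest Ctrl library. By limma on log2(FPKM + 0.1), MPTP minus Ctrl was 0.46 (SE 0.192, 95% interval 0.035 to 0.88, unadjusted p = 0.0361, adjusted p = 0.863). The diet group minus Ctrl was 0.31 (SE 0.192, limma adjusted p = 0.803) and the diet group minus MPTP was -0.14 (SE 0.192, limma adjusted p = 0.873). A fold on this scale understates the change of a gene of low level.

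Counts and FPKM of a gene together give the transcript length that the table used in each library. For Slc16a7 this length, calibrated on genes with a single annotated transcript, was 2564, 9962 and 2566 bases in Ctrl, 6282, 9686 and 2569 bases in MPTP, and 6374, 2567 and 2568 bases in the diet group. The 4 libraries with the larger counts are those with the longer lengths. GENCODE M21 lists a transcript of 2562 bases (Slc16a7-205) and another of 10981 bases (Slc16a7-206). Both hold the same coding length of 1452 bases, and their 3′ untranslated parts are 527 and 8742 bases long. If only these transcripts contributed, the longer would have taken 87.9% of the FPKM in Ctrl 2, 84.6% in MPTP 2, 44.2% in MPTP 1, 45.3% in diet 1 and at most 0.0831% in the other 5. The FPKM was highest in MPTP 1 and diet 1, the libraries of intermediate length, together with MPTP 3.

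**Figure D3:**
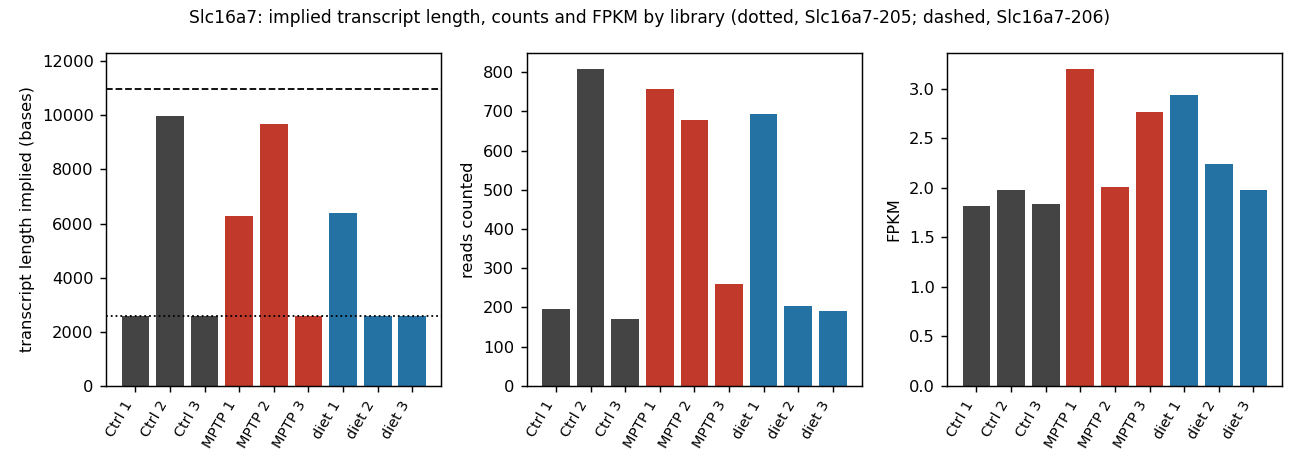
Slc16a7 in each library: the transcript length in bases implied by count and FPKM (left), the reads counted (middle) and the FPKM (right), with lines at the annotated lengths of Slc16a7-205 (dotted, 2562 bases) and Slc16a7-206 (dashed, 10981 bases). The 4 libraries with 678 to 808 reads are those of 6282 to 9962 bases, and the other 5 hold 171 to 260 reads at 2564 to 2569 bases.

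Such a spread was rare in the table. The ratio of the longest to the shortest implied length was 3.96 for Slc16a7, and only 2 of 12482 genes that reached 100 counts in each library had a larger ratio. Across those genes the median ratio was 1.03 and 8 genes (0.0641%) exceeded 3. For the other 7 members the ratio was 1.02 or 1.03. Whether reads of the longer transcript were present in the 5 libraries of short length cannot be read from the table.

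Oxidation in mitochondria was examined through its 3 enzymes. Bdh1 (chr16:31422280-31458901, plus strand) interconverts 3-hydroxybutyrate and acetoacetate. Its levels were 39.6, 41.1 and 36.5 CPM in Ctrl, 40.4, 38.3 and 34.3 CPM in MPTP, and 38.1, 37.5 and 36.3 CPM in the diet group. The diet libraries lay inside the range of the MPTP libraries. The diet group minus MPTP was -0.016 on the log2 scale (SE 0.077, 95% interval -0.18 to 0.15, edgeR adjusted p = 0.975), and the diet group minus Ctrl was -0.069 (SE 0.0768, edgeR adjusted p = 0.907).

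Oxct1 (chr15:4026383-4155344, plus strand) encodes SCOT, the transferase that is absent from liver and lets other tissues use acetoacetate. It measured 272, 261 and 244 CPM in Ctrl, 298, 265 and 246 CPM in MPTP, and 293, 278 and 278 CPM in the diet group. Group means were 259 ± 14.1, 270 ± 25.9 and 283 ± 8.55 CPM (SD, n = 3). The diet libraries were all above the control libraries, while the MPTP libraries spanned both. Diet minus Ctrl was 0.13 on the log2 scale (SE 0.0653, 95% interval -0.011 to 0.27, edgeR unadjusted p = 0.0672, adjusted p = 0.753). With 1 library left out it lay between 0.091 (without Ctrl 3) and 0.17 (without Ctrl 1). Among all genes tested, 12.7% had libraries of these groups that did not overlap in CPM.

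Acat1 (chr9:53580522-53610382, minus strand) encodes the thiolase that splits acetoacetyl-CoA. It measured 88.8, 92.2 and 92.6 CPM in Ctrl, 97.2, 98 and 89.2 CPM in MPTP, and 89.7, 89.7 and 91.3 CPM in the diet group. In CPM the groups overlapped, whereas in FPKM the diet libraries lay below the MPTP libraries. Diet minus MPTP was -0.071 in the counts (SE 0.053, edgeR adjusted p = 0.764) and -0.091 in log2(FPKM + 0.1) (SE 0.051, limma adjusted p = 0.682).

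Outside mitochondria the list held Aacs, which uses acetoacetate, and Hmgcll1, which forms it. Aacs (chr5:125475814-125517410, plus strand) measured 43.6, 40.3 and 46.6 CPM in Ctrl, 45.6, 43.4 and 46 CPM in MPTP, and 35.3, 41.6 and 33.7 CPM in the diet group. Group means were 43.5 ± 3.16, 45 ± 1.42 and 36.9 ± 4.17 CPM (SD, n = 3). Every diet library was below every MPTP library, and the diet 2 library was above the lowest control. Diet minus MPTP was -0.29 on the log2 scale (SE 0.0851, 95% interval -0.47 to -0.10, edgeR unadjusted p = 0.00471, adjusted p = 0.587), and 0.749% of the genes tested had a p as small or smaller. Diet minus Ctrl was -0.24 (SE 0.085, 95% interval -0.42 to -0.057, edgeR unadjusted p = 0.0141, adjusted p = 0.74). With 1 library left out it lay between -0.33 (without diet 2, edgeR unadjusted p = 0.00155) and -0.18 (without diet 3, edgeR unadjusted p = 0.0742). Without Ctrl 3 it was -0.19 (edgeR unadjusted p = 0.0685). MPTP minus Ctrl was 0.048 (SE 0.0846, edgeR adjusted p = 0.973). Leaving out any single library kept diet minus MPTP between -0.38 and -0.23, and no alternative brought its adjusted p below 0.271 (DESeq2).

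Hmgcll1 (chr9:76014855-76136350, plus strand) encodes a lyase outside mitochondria that forms acetoacetate from HMG-CoA. It measured 24.2, 20.4 and 24.3 CPM in Ctrl, 22.3, 20.9 and 21.8 CPM in MPTP, and 23.3, 17.6 and 20.8 CPM in the diet group. The groups overlapped in each comparison. Diet minus Ctrl was -0.16 on the log2 scale (SE 0.109, 95% interval -0.39 to 0.074, edgeR adjusted p = 0.831). It was -0.26 without diet 1 and -0.055 without diet 2.

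**Figure D4:**
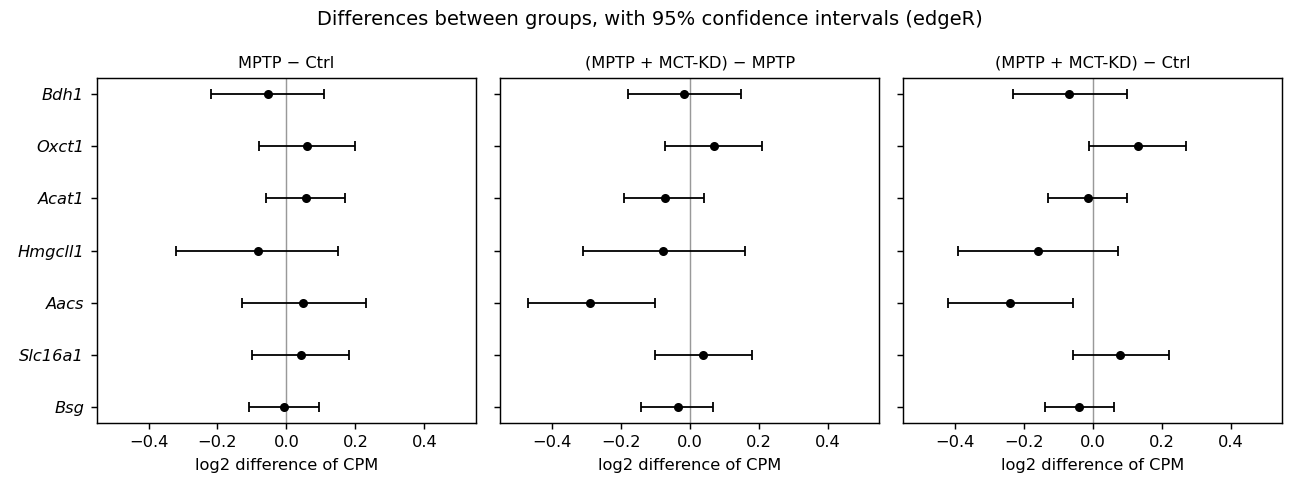
Log2 differences of CPM between groups for 7 of the 8 genes, with 95% confidence intervals from edgeR; the vertical line marks no difference and Slc16a7 is left out because its intervals reach from -2.71 to 2.73. Only the Aacs intervals for the diet group, at -0.29 against MPTP and -0.24 against Ctrl, do not reach 0.

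Read against the whole table, none of the 8 genes was called. For MPTP against Ctrl, edgeR called 0 of the 8 and 0.0134% of the genes tested (2 genes). At an unadjusted p under 0.05 it was 0 of the 8 against 5.36%. No member separated these groups in CPM (10.5% of the genes tested did), and 1 of 8, Slc16a7, did in FPKM (10.6%). That separation was narrow, at 2.01 FPKM in MPTP 2 against 1.98 FPKM in Ctrl 2.

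For the diet group against MPTP, edgeR called 0 of the 8 and 0% of the genes tested. At an unadjusted p under 0.05 it was 1 of the 8, Aacs, against 7.78%. In CPM the libraries of 1 member, Aacs, did not overlap (13.7% of the genes tested), and in FPKM those of Acat1 and Aacs did not (13.4%).

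For the diet group against Ctrl, edgeR again called 0 of the 8 and 0% of the genes tested. An unadjusted p under 0.05 was found for 1 of the 8, Aacs, against 6.73%. In CPM only Oxct1 of the 8 separated these groups (12.7%), and in FPKM Oxct1 and Slc16a7 did (12.8%). The separation of Slc16a7 was very narrow, since diet 3 and Ctrl 2 both round to 1.98 FPKM. DESeq2 and limma also called 0 of the 8 in each comparison. The MPTP group enters the first and the second of these comparisons, and Ctrl the first and the last, so they are not independent.

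The intervals give the size of change that these libraries leave possible. The 95% interval lay within a 1.25-fold change in either direction for 7 of the 8 genes in MPTP against Ctrl, for 6 in the diet group against MPTP and for 5 in the diet group against Ctrl. Over all genes tested this held for 51.9%, 50.3% and 51.2%. The median log2 difference of the 8 was 0.045, -0.052 and -0.028 in these comparisons, beside -0.00092, 0.00056 and -0.0015 over all genes tested.

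Related genes of the pathway were examined as 28 further genes, of which 19 were abundant enough to test. By edgeR 0 of the 19 were called in any comparison. Of these 8 were above and 11 below in MPTP against Ctrl, 5 above and 14 below in the diet group against MPTP, and 8 above and 11 below in the diet group against Ctrl. At an unadjusted p under 0.05 there were 0, 0 and 1 of the 19, beside 5.36%, 7.78% and 6.73% of all genes tested. The libraries did not overlap in CPM for 0, 1 and 3 of the 19, beside 10.5%, 13.7% and 12.7%.

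The genes of ketone synthesis and the other thiolases counted 8, with 6 tested. Acat2, a cytosolic thiolase of sterol synthesis, was the 1 tested related gene with an unadjusted p under 0.05. It measured 54.6, 54.8 and 57.1 CPM in Ctrl, 46.4, 58.3 and 51.6 CPM in MPTP, and 50.2, 49.2 and 45.6 CPM in the diet group. The diet libraries lay below the controls, with a log2 difference of -0.20 (SE 0.0792, edgeR unadjusted p = 0.0251, adjusted p = 0.74). Hmgcs1 separated the same groups, at 262, 274 and 254 CPM in the diet group against 275, 284 and 281 CPM in Ctrl, with a log2 difference of -0.089 (SE 0.0508, edgeR adjusted p = 0.786). Acat2 and Acat3 are close copies, and reads may have been exchanged between them.

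Of the 15 other carriers and chaperones 11 were tested. Slc16a3, the lactate exporter MCT4, was low, at 0.476 to 1.55 FPKM, and its groups overlapped. Slc16a6, which carries ketone bodies out of liver cells, measured 14.4, 14.7 and 15.9 CPM in Ctrl, 13.1, 12.8 and 14.9 CPM in MPTP, and 14.8, 16.6 and 15.4 CPM in the diet group. Diet minus MPTP was 0.20 for it (SE 0.103, edgeR adjusted p = 0.67), with overlapping groups. Slc16a4 was the 1 tested related gene that separated the diet group from MPTP in CPM. It measured 3.94, 3.19 and 3.3 CPM against 4.04, 4.28 and 4.04 CPM, with a log2 difference of -0.24 (SE 0.203, edgeR adjusted p = 0.785). Emb (embigin), the chaperone that pairs with MCT2, spanned 49.7 to 65.6 CPM, with its highest level in Ctrl 3, the library with choroid plexus markers. The part of that tissue in the value of Emb was not tested.

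The mitochondrial pyruvate carrier supplies the competing fuel. Mpc1 measured 53.7, 55.1 and 54.9 CPM in Ctrl, 60.5, 57.7 and 51.1 CPM in MPTP, and 57.5, 58.6 and 55.9 CPM in the diet group. In CPM the diet libraries lay above the controls, by 0.071 on the log2 scale (SE 0.0664, edgeR adjusted p = 0.882). In FPKM these groups overlapped, with a difference of 0.027 in log2(FPKM + 0.1) (SE 0.051, limma adjusted p = 0.947). Mpc2 spanned 48.1 to 61.5 CPM with overlapping groups.

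The receptors Hcar1 (lactate), Hcar2 (3-hydroxybutyrate) and Ffar3 were too low to be tested with the rest. Hcar2 had 0 counts in 5 libraries and 6, 9, 6 and 4 counts in MPTP 1, MPTP 2, diet 1 and diet 3. Ffar3 had 0 counts in all 9 libraries, which by counting error alone allows up to 3 counts in a library.

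Other genes that followed the members across the 9 libraries were found by Pearson's r of log2 CPM over 12415 genes, as a description without a test. The 2 nearest to Oxct1 were Raver2 (r = 0.976, Spearman's rho = 0.917) and Ikbkg (r = 0.971, rho = 0.983). For Aacs they were Ubap2l (r = 0.940) and Tle1 (r = 0.935), and for Slc16a7 Rita1 (r = 0.944) and Nrsn1 (r = 0.939). The values for Slc16a7 rest on its CPM, which moved with the implied transcript length, and were not computed on FPKM. Snx17 and Ndufs5 were nearest to Bdh1 (r = 0.925 and 0.910), Apol8 and Lrrc8d to Acat1 (r = 0.936 and 0.935), Tmem35a and Nat8f1 to Hmgcll1 (r = 0.923 and 0.920), Trim36 and Trim67 to Slc16a1 (r = 0.916 and 0.889), and Sars and Nsfl1c to Bsg (r = 0.933 and 0.914). All pairs share libraries, depth and the search over many genes for the highest value.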

How the data were processed

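The authors deposited 1 table with, per the file headers, a raw count and an FPKM value for each gene in each of 9 libraries. Per the labels, RNA came from a column kit and libraries from a NEBNext Ultra kit; the build was GRCm38 (mm10), per the submitters' processing notes. The sources used here name no aligner, counter, annotation release or strand setting, so reads of overlapping genes cannot be told apart (GENCODE lists genes on the opposite strand for Bdh1, Oxct1, Hmgcll1 and Slc16a7, and on the same strand for Hmgcll1, Aacs and Slc16a1).

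Of the 27339 genes, 22022 matched GENCODE M21, which gave coordinates; 10 lines without a gene were dropped, and 27 symbols turned into dates were replaced through their identifiers. Counts were tested with edgeR 4.0.16 (R 4.3.3; quasi-likelihood, robust, TMM factors 0.9835 to 1.015) with all 9 libraries in 1 model and genes of mean FPKM at least 0.5 (14949; those left out held 0.189% to 0.244% of counts). The common biological coefficient of variation was 0.134. limma 3.58.1 on log2(FPKM + 0.1) and DESeq2 1.42.0 were alternatives, with other scaling, filters, libraries left out and a replicate block. The edgeR fit was tested on simulated data.

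Implied length was the count divided by FPKM and library total, scaled by the median ratio to annotated length of genes with a single transcript. All 8 members are named; related genes, markers and the 2 nearest genes by Pearson's r followed a fixed rule, apart from some genes that it takes and that are not reported here. Members and lists were chosen with earlier results of these data known. Same-numbered MPTP and diet libraries correlated at 0.107 to 0.182 in their deviations from group means. This was above the minimum of 0.1, as a hint from the data alone. With Ctrl the same-numbered pairs lay at -0.151 to 0.0783. Pairs with different numbers lay at -0.15 to 0.0413 for MPTP and the diet group. For MPTP and Ctrl they lay at -0.168 to 0.186, so some of them also passed the minimum.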

Additional observations from a re-analysis of the deposited data

How the results depend on the processing

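Over 20 alternatives no member was called in any comparison; of 480 values of the members 459 kept their direction and 21 reversed, all from differences of at most 0.078 on the log2 scale. The related genes below the filter had a mean under 0.5 FPKM, and some of them had 0 counts in several libraries. With the replicate number as a block, edgeR called 3 genes for MPTP against Ctrl, 0 for the diet group against MPTP and 5 for the diet group against Ctrl, and 0 members; Aacs was -0.29 in the diet group against MPTP (adjusted p = 0.539). Genes called over the table, in place of 2, 0 and 0, were 14, 19 and 16 by DESeq2. For MPTP against Ctrl they were 0 by limma with either pseudocount, 0 without robust moderation, 1 without Ctrl 3 and MPTP 1, and 0 to 4 with 1 library left out. For the diet group against MPTP they were 1 without Ctrl 3 and MPTP 1, and 0 to 1 with 1 library left out. For the diet group against Ctrl they were 1 with no filter, 4 with only the 2 groups compared, and 0 to 4 with 1 library left out. Genes with an implied length ratio above 3 fell from 8 to 2 with at least 500 counts required, a bound that Slc16a7 itself does not reach. Without Ctrl 3 and MPTP 1, reversed values were Bdh1 0.038 and Bsg 0.0077 (diet group against MPTP), Oxct1 -0.057 (MPTP against Ctrl) and Slc16a7 -0.30 (diet group against Ctrl). By limma Bsg in MPTP against Ctrl was 0.004 and 0.0039. With 1 library left out, reversals lay in these ranges. For MPTP against Ctrl they were Bdh1 -0.11 to 0.014, Oxct1 -0.014 to 0.12, Aacs -0.0039 to 0.1, Slc16a1 -0.0094 to 0.089 and Bsg -0.046 to 0.022. For the diet group against MPTP they were Bdh1 -0.08 to 0.04, Hmgcll1 -0.18 to 0.025 and Bsg -0.058 to 0.0096, and for the diet group against Ctrl Slc16a7 -0.84 to 1.1. The cause of these changes was not tested.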

Other observations

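Among the related genes below the level required for testing, Oxct2b, a copy of the SCOT gene known from testis, was chosen after its values were seen. It had 19, 26 and 13 counts in Ctrl, 37, 27 and 47 in MPTP, and 12, 13 and 14 in the diet group. The MPTP libraries thus lay above both other groups, but only narrowly above Ctrl (27 counts in MPTP 2 against 26 in Ctrl 2). The share of genes at this low level whose libraries separate the groups was not computed. With no filter on low values, the log2 difference of MPTP minus Ctrl was 1.05 (SE 0.499, edgeR adjusted p = 0.921 over 23217 genes) and that of the diet group minus MPTP was -1.48 (SE 0.512, edgeR adjusted p = 0.722). Oxct2a, its near-identical copy, had at most 3 counts in a library, and reads may have been exchanged between these copies. Hcar1, the lactate receptor, had 123, 55 and 37 counts in Ctrl, 14, 24 and 51 in MPTP, and 35, 76 and 119 in the diet group, with overlapping groups. For it the diet group minus MPTP was 1.38 (SE 0.582, edgeR adjusted p = 0.838). The summed meningeal fibroblast markers, for the most part Ptgds, were 1278, 941 and 508 CPM in Ctrl, 391, 401 and 703 CPM in MPTP, and 466, 1195 and 1273 CPM in the diet group. The part of these markers in the value of Hcar1 was not tested.

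The ratio of Oxct1 to Bdh1 in FPKM, also chosen after its values were seen and not tested, was 6.1, 5.63 and 5.92 in Ctrl, 6.53, 6.12 and 6.38 in MPTP, and 6.87, 6.52 and 6.74 in the diet group. The libraries of Ctrl lay below those of MPTP and the diet group, but only narrowly below MPTP (6.1 in Ctrl 1 against 6.12 in MPTP 2). MPTP and the diet group overlapped. For Acat1 against Acat2, the mitochondrial and the cytosolic thiolase, the ratio in FPKM was 1.05 to 1.06 in Ctrl, 1.1 to 1.36 in MPTP and 1.17 to 1.26 in the diet group. Both ratios were picked from several, and the share of gene pairs whose ratios separate the groups was not computed.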
